A study of Mus musculus with 222 samples.

Results

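The samples described here are 7 bulk RNA-seq libraries of XX primordial germ cells (PGCs), the embryonic precursors of eggs, from mouse gonads at stage E11.5, out of 222 samples in the series. They were taken as every library labelled RNA-seq at E11.5 XX: 4 from embryos that lost Eed in the germ line (ECKO 1 to 4, genotype label Eed -/-) and 3 from Control 1 to 3 (genotype label wild type). All embryos, of mixed C57BL/6;129S1/SvlmJ background, came from Eed fl/fl mothers carrying OG, an Oct4-GFP reporter, mated to Eed fl/+ fathers carrying BC, a Blimp1-Cre driver. Every embryo, Control included, therefore had at least 1 floxed Eed allele from its mother. Which Controls carried Cre is not given. Blimp1 (Prdm1) is active in PGCs from their specification, so Cre acts in the founding population of the germ line, and any Blimp1-expressing tissue outside the germ line could also lose Eed. Gonads were digested with trypsin, GFP-positive cells were sorted, and their RNA was amplified. The labels do not say whether a library is 1 embryo or a pool. E11.5 XY libraries (4 ECKO, 4 Control) and single E12.5 XX germ cells (2 ECKO and 2 Control embryos) of the same series are used only beside the XX values.

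EED belongs to the core of PRC2, a Polycomb complex that silences genes. PRC2 methylates histone H3 on lysine 27, EED binds that mark and stimulates the EZH1 or EZH2 enzyme, and loss of EED destabilises the complex. Its targets are mostly CpG-rich promoters of developmental regulators. At E11.5 PGCs have reached the gonad, have erased most of their DNA methylation, and in XX embryos are close to receiving the retinoic acid and BMP signals under which they start meiosis and induce Stra8.

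Eed, the deleted gene, had 27.8, 21.5, 12.51 and 27.8 CPM in ECKO 1 to 4, against 83.1, 89.3 and 76.9 CPM in Controls 1 to 3. Each ECKO library held less than each Control. The mean was 22.4 ± 7.23 CPM in ECKO (SD, n = 4) and 83.1 ± 6.22 CPM in Control (SD, n = 3), and the log2 fold change of ECKO over Control was -1.88 ± 0.35 (SE). Levels are CPM, counts relative to the library's total, and for single genes the total is scaled by edgeR's TMM factors. Its adjusted p of 0.0567 in edgeR's quasi-likelihood test missed the 0.05 threshold used throughout, over 11058 genes tested with Benjamini-Hochberg adjustment. Without ECKO 4 it was 0.0278. Counts per gene do not show which exons were read, so transcripts of the deleted allele that lack the floxed exons would be counted too, and so would RNA of cells that escaped Cre.

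The libraries were shallow and uneven, with 7559310, 1323850, 2638850 and 2966355 counts in ECKO 1 to 4, against 415291, 1515482 and 3088644 counts in Controls 1 to 3. In Control 1, the shallowest, 1 count was 2.41 CPM, so that a gene under a few CPM is not measurable there. No pair of replicates was alike to within sampling noise (chi-square statistic divided by its degrees of freedom, 4.49 to 35.5). The E11.5 XY libraries, for comparison, held from 8607927 to 14974853 counts.

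The labelled cell type was checked against 9 germ cell markers (Pou5f1, Dppa3, Dazl, Ddx4, Nanos3, Prdm1, Tfap2c, Kit and Dnd1), all of which had counts in all 7 libraries. Their summed level was 1955, 2114, 2262 and 1333 CPM in ECKO 1 to 4, against 1866, 1753 and 2220.4 CPM in Controls 1 to 3. ECKO 4 was the lowest. The 46 Y-linked genes of the table had no count in any of the 7 libraries, as the XX label requires. ECKO 4 stood apart in the other direction for gonadal somatic cells. The 19 interstitial markers summed to 296, 157, 148 and 1931 CPM in ECKO 1 to 4, against 154, 298.3 and 95.2 CPM in Controls 1 to 3, and 1 of the 19 was at 0 in ECKO 4 compared with 2 to 5 in the other ECKO libraries and 5 to 8 in Controls. Pdgfra, a receptor of mesenchymal cells, had 22.3, 1.54, 1.43 and 214 CPM in ECKO 1 to 4, against 0, 5.46 and 4.08 CPM in Controls 1 to 3. The endothelial gene Cdh5 had 7.39, 10.001, 9.65 and 128 CPM in ECKO 1 to 4, against 2.52, 6.14 and 2.38 CPM in Controls 1 to 3. Both were far higher in ECKO 4 than in any other library. The 11 endothelial markers, which include Pecam1 that PGCs also make, summed to 133, 131, 175 and 532 CPM in ECKO 1 to 4, against 231, 224 and 333 CPM in Controls 1 to 3. Pecam1 itself had 76.0, 102, 109 and 95.8 CPM in ECKO 1 to 4, against 219, 115 and 327 CPM in Controls 1 to 3. It thus made up a large part of the Control sums. It lay lower in every ECKO library and did not pass (edgeR, adjusted p = 0.122). Supporting cell markers summed to 109, 65.7, 55.7 and 250.5 CPM in ECKO 1 to 4. They summed to 60.2, 87.8 and 58.3 CPM in Controls 1 to 3. Of these markers, Foxl2 and Amh were at 0 in all 7 libraries, and no absence of supporting cells is read from this. Sox9 had 35.5 CPM in ECKO 4 and at most 1.07 CPM elsewhere. Gata4 had 75.6 CPM in ECKO 4 and less in every other library. Wt1 had 15.6 CPM in ECKO 4 and was highest in Control 2, at 21.8 CPM. Lhx9 had 9.28 CPM in ECKO 4 and was highest in ECKO 2, at 12.3 CPM. Xist, the RNA of the inactive X that somatic XX cells keep and PGCs lose as they reactivate it, had 158, 87.7, 73.3 and 697 CPM in ECKO 1 to 4, against 57.9, 256 and 15.7 CPM in Controls 1 to 3. In these bulk samples, fewer cells of a type and less RNA per cell cannot be told apart.

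**Figure D1:**
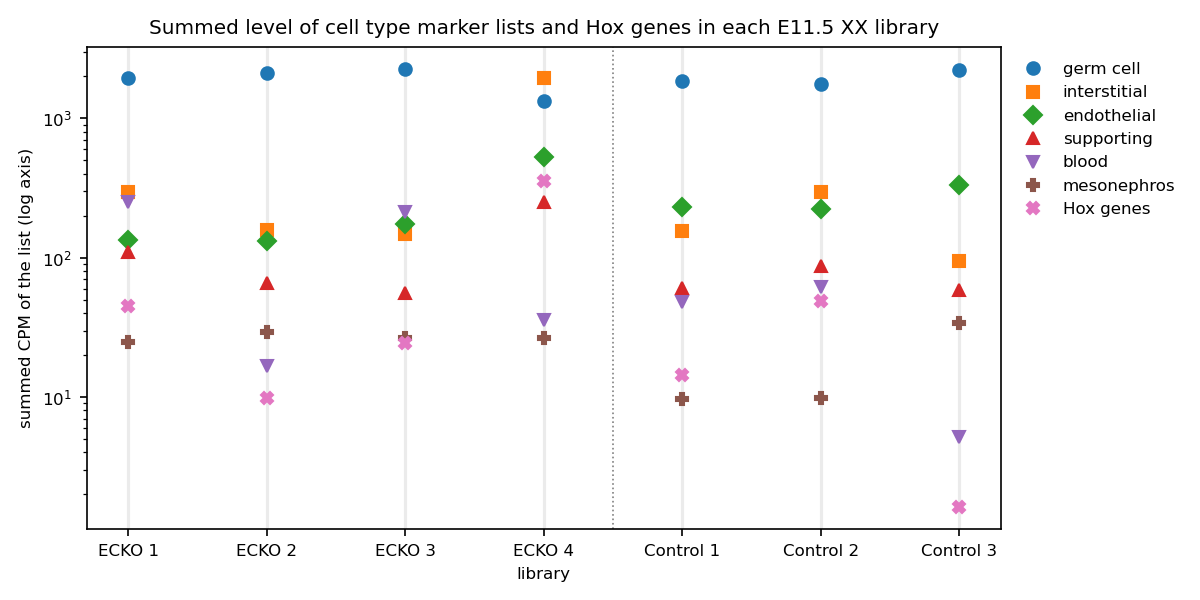
Summed CPM (log axis) of 6 cell type marker lists and of the Hox genes in each E11.5 XX library, ECKO 1 to 4 on the left and Controls 1 to 3 on the right, 1 point per list and library. Interstitial markers reach 1931 CPM in ECKO 4, above its germ cell markers at 1333 CPM, and lie between 95.2 and 298.3 CPM in the other 6 libraries.

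Other libraries carried smaller traces. The 13 blood markers summed to 252, 16.6, 213 and 35.4 CPM in ECKO 1 to 4, against 48.2, 62.0 and 5.18 CPM in Controls 1 to 3. Hbb-y, an embryonic globin, had 67.8, 3.85, 95.1 and 15.9 CPM in ECKO 1 to 4, against 5.03, 2.73 and 0.681 CPM in Controls 1 to 3. The fetal liver and yolk sac genes Alb and Afp, looked at after their values were seen, were higher in ECKO 1, 3 and 4. Alb had 35.0, 3.08, 86.5 and 41.1 CPM in ECKO 1 to 4, against 2.52, 2.05 and 0.681 CPM in Controls 1 to 3. Afp had 61.2, 3.85, 92.9 and 63.3 CPM in ECKO 1 to 4, against 5.03, 6.14 and 0 CPM in Controls 1 to 3. ECKO 2 was near the Controls for these 3 genes. The 21 listed genes that tissue dissociation can induce summed to 504, 498, 609 and 960.4 CPM in ECKO 1 to 4, against 424, 440.1 and 224 CPM in Controls 1 to 3, so every ECKO library was above every Control and ECKO 4 was the highest. The immediate early gene Egr1 had 111, 108, 160.1 and 399 CPM in ECKO 1 to 4, against 42.8, 77.8 and 5.79 CPM in Controls 1 to 3 (adjusted p = 0.179). Of 17 tested members none passed, and 2 lay above all Controls and 0 below (all tested genes: 7.51% and 5.23%). The median log2 fold change was 0.37, or 0.17 over 16 tested without ECKO 4, beside 0.03 and -0.01 for all tested genes. The direction was not shared by all members: the early response genes Btg1, Btg2 and Ier3 had log2 fold changes of -0.08, -0.18 and -0.21. The part of any of these cells, or of handling, in the results was not tested. The number of calls is also given below without ECKO 4, as are several list counts and medians. The other list counts include ECKO 4.

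Between ECKO and Control, 19 of 11058 genes passed the test (0.172%), 15 higher in ECKO (0.136%) and 4 lower (0.0362%). The higher ones include a germline piRNA gene (Tdrd1), a D-type cyclin (Ccnd1), a mesoderm and trophoblast transcription factor (Hand1), several surface and matrix proteins (Serpine2, Sdc3, Ptprf, Ptprs), and chromatin or DNA-binding proteins (Bend4, Chd7). The lower ones were Pfkp, Hmgn5, Gnai1 and Rpl29. Without ECKO 4, 26 of 10248 genes passed (0.254%), 21 higher (0.205%) and 5 lower (0.0488%), and all 19 were among them. Leaving out 1 more library gave 3 calls (without Control 3) to 21 (without ECKO 1). The 7 that joined without ECKO 4 were Eed, Stra8, Cdkn1a, Gata2, Sfmbt2, Syt7 and Aff1. At an unadjusted p under 0.05, 1542 genes (13.9%) differed with all 7 libraries, 985 higher and 557 lower.

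This number of calls rested on each Control. With any 1 of the 3 Controls left out, edgeR called 0 genes, although 1274 to 1521 genes had an unadjusted p under 0.05. Without ECKO 1, the deepest library, it called only Tdrd1. DESeq2 on all 7 libraries called 316 genes, the 19 among them. The groups of single genes below are therefore given with the values of each library.

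**Figure D2:**
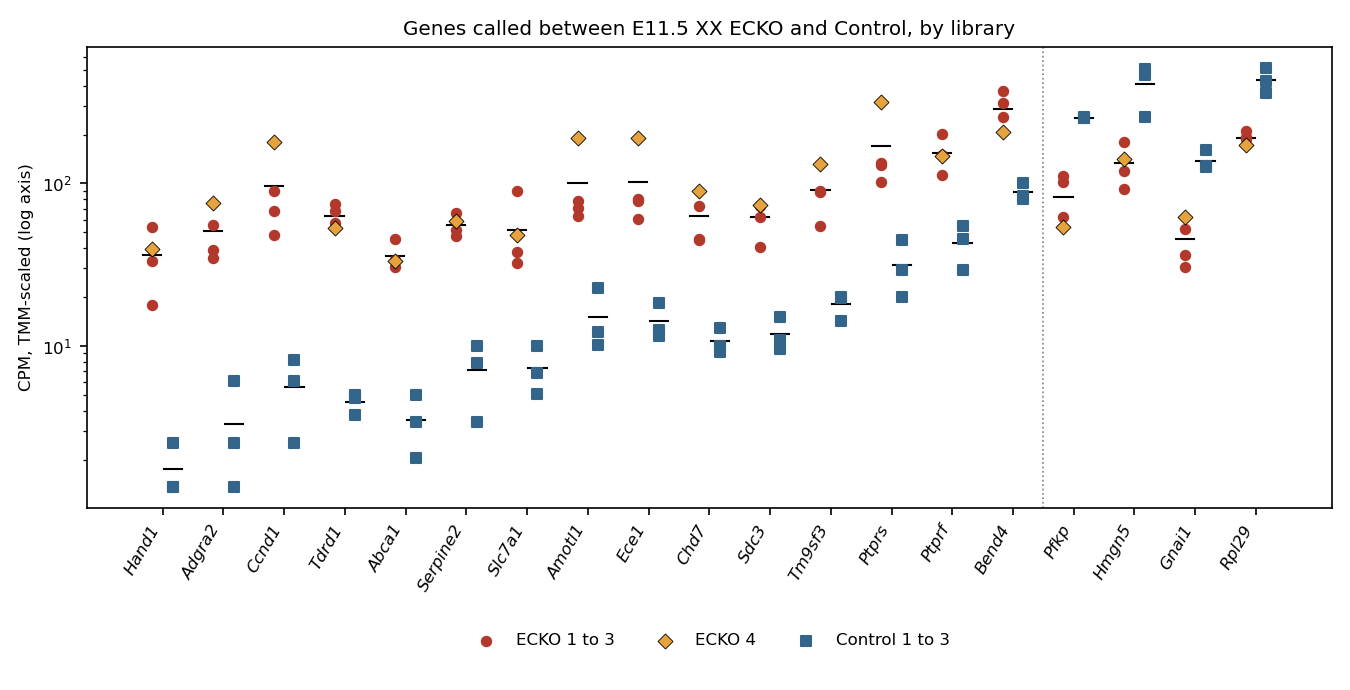
CPM (TMM-scaled, log axis) of the 19 called genes in each library, ECKO to the left of Control for each gene, with the 15 higher genes before the dotted line and the 4 lower ones after it. Points are libraries (ECKO 4 as diamonds) and bars are group means. No gene has an overlap between its ECKO and Control points.

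Promoter sequences are shown for Tdrd1, the gene of smallest adjusted p, for Stra8, which passed only without ECKO 4, for Bend4, the most abundant of the higher genes, and for Pfkp, which was lower, because PRC2 acts mainly at CpG-rich promoters. Each is the 250 bases before the first RefSeq start listed for the gene in GRCm38.p6, 5′ to 3′ on the gene's strand, with CpG dinucleotides in capitals. They lie at chr19:56825959-56826208 (plus strand), chr6:34920698-34920947 (plus strand), chr5:67427800-67428049 (minus strand) and chr13:6648772-6649021 (minus strand).
Tdrd1: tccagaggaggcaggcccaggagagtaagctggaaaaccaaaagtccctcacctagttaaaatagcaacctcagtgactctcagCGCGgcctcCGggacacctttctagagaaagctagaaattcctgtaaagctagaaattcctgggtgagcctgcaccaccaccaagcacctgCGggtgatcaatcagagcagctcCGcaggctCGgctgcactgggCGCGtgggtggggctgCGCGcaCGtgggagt
Stra8: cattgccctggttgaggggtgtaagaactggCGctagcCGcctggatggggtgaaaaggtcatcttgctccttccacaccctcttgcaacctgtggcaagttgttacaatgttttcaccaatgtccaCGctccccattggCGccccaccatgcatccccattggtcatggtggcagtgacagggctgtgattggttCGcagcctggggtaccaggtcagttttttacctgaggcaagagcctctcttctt
Bend4: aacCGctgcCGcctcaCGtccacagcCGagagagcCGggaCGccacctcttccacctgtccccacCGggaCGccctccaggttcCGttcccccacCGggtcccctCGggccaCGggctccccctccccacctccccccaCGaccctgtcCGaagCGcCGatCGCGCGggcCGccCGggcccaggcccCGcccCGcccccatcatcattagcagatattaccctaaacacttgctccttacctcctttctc
Pfkp: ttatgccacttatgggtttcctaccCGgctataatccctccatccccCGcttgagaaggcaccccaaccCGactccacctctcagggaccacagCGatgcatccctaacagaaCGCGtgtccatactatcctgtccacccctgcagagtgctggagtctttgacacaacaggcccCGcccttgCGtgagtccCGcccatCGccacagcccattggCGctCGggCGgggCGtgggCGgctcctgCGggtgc
These windows hold 11, 5, 23 and 16 CpGs in the order printed. The 11 of 15 higher genes with an entry had a median of 21 CpGs (11 to 34), and the 3 of 4 lower genes with an entry had a median of 18 (16 to 43). The 8543 tested genes with an entry had a median of 17. Stra8 is thus the poorest in CpG of the 4 shown. The E-box CACGTG, which reads the same on both strands and which the MAX-containing PRC1 variant binds at germline genes, occurs in the Tdrd1 window and not in the other 3 shown. It occurs in 3 of the 11 higher genes (Tdrd1, Abca1 and Ptprs), in 1 of the 3 lower genes (Gnai1) and in 8.98% of the tested genes with an entry. AGGTCA, the half-site of retinoic acid receptors and other nuclear receptors, searched on both strands, occurs 2 times in the Stra8 window, in 1 of the 11 higher genes (Ptprs) and in 9.97% of tested genes. These matches are descriptions of letters and show no binding.

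Tdrd1 had the smallest adjusted p. It encodes a Tudor protein of the germline granules where PIWI proteins and piRNAs act against transposons. It had 56.8, 67.7, 75.05 and 53.4 CPM in ECKO 1 to 4, against 5.03, 4.77 and 3.74 CPM in Controls 1 to 3. All 4 ECKO libraries, ECKO 4 included, lay far above all Controls and close together. The Controls held 20 Tdrd1 counts in all, 2 of them in Control 1. Their spread and the size of the change are thus loosely known. The mean was 63.2 ± 9.97 CPM in ECKO and 4.52 ± 0.682 CPM in Control (SD, n = 4 and 3), a log2 fold change of 3.86 ± 0.42 (edgeR, adjusted p = 0.00478). Tdrd1 was also higher in E11.5 XY ECKO (2.26 ± 0.42, adjusted p = 0.0127), and at E12.5 the 2 XX ECKO embryos had 6.23 and 58.8 CPM, against 0.0354 and 0 CPM in the 2 Control embryos.

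Of the 23 tested germline genome defence genes, 7 had all ECKO libraries above all Controls and 1 had all below, compared with 7.51% and 5.23% of all tested genes. Tdrd1 alone passed the test, where 0.136% of all tested genes were called higher. The list median log2 fold change was 0.84, against 0.03 for all tested genes. Without ECKO 4 the median was 1.21 and 14 of 23 were above all Controls and 1 below, compared with 9.49% and 7.8% of all tested genes in that comparison. Piwil4, a PIWI protein of later male germ cells, had 5.19, 13.1, 5.72 and 2.98 CPM in ECKO 1 to 4, against 0, 0 and 0 CPM in Controls 1 to 3. With no count in any Control it was at least 8.85-fold higher, set against 3 counts over the Control group, and did not pass (adjusted p = 0.132). Ddx4, the helicase of germ granules, had 128, 162, 140.4 and 41.4 CPM in ECKO 1 to 4, against 90.6, 84.6 and 89.5 CPM in Controls 1 to 3. Dazl, an RNA-binding protein that licenses later germ cell fates, had 31.1, 90.0, 60.04 and 6.63 CPM in ECKO 1 to 4, against 40.3, 17.1 and 24.8 CPM in Controls 1 to 3. In both, ECKO 4 was the lowest ECKO library, and without it the log2 fold changes were 0.70 and 1.21 with adjusted p of 0.238 and 0.311. Tdrd12, another Tudor gene, went the other way with 14.1, 18.5, 27.2 and 5.30 CPM in ECKO 1 to 4, against 60.4, 32.7 and 39.8 CPM in Controls 1 to 3 and did not pass (adjusted p = 0.253).

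Stra8, the gatekeeper of meiotic entry, had 65.0, 53.1, 25.02 and 1.99 CPM in ECKO 1 to 4, against 2.52, 2.73 and 1.36 CPM in Controls 1 to 3. ECKO 1 to 3 were above every Control, and ECKO 4 lay within the Control range. The log2 fold change was 4.14 ± 1.03 with adjusted p = 0.122 over 7 libraries, and 4.56 with adjusted p = 0.00836 without ECKO 4. With 9 Stra8 counts over the Controls, the size of the change is loosely known. In E11.5 XY it was 4.82 ± 0.89 (adjusted p = 0.0127). At E12.5 the XX ECKO embryos had 293 and 154 CPM, against 5.28 and 0.0386 CPM in Controls.

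Other meiotic genes did not pass. Rec8, the meiotic cohesin, had 47.0, 35.4, 10.4 and 7.62 CPM in ECKO 1 to 4, against 7.55, 3.41 and 2.38 CPM in Controls 1 to 3. ECKO 4 was just above the highest Control, and the log2 fold change was 2.74 ± 0.83 (adjusted p = 0.177). Sycp3, of the synaptonemal complex axis, had 19.5, 3.08, 18.6 and 2.32 CPM in ECKO 1 to 4, against 10.1, 17.7 and 1.36 CPM in Controls 1 to 3, with overlapping groups. Syce2, of its central element, had 177, 179, 180.1 and 86.8 CPM in ECKO 1 to 4, against 239, 344 and 307 CPM in Controls 1 to 3. Msh4, a crossover factor, was near the limit of detection in ECKO with 0.389, 0, 1.43 and 0.994 CPM in ECKO 1 to 4, against 7.55, 8.87 and 5.79 CPM in Controls 1 to 3. Both were lower in all ECKO libraries and neither passed (adjusted p = 0.143 and 0.192). The 29 tested meiosis genes had a median of 0.07, with 1 above and 2 below all Controls, near the shares of all tested genes (7.51% above, 5.23% below). Without ECKO 4 the median was 0.14, and 5 of 28 were above and 3 below, where all tested genes gave 9.49% and 7.8%.

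Retinoic acid and BMP genes, of which 23 were tested, had a median of 0.74 (0.64 over 22 tested without ECKO 4). None passed, 6 had all ECKO libraries above all Controls and 0 had all below, where all tested genes gave 7.51% and 5.23%. The receptor gene Rxra had 38.8, 46.2, 46.8 and 54.7 CPM in ECKO 1 to 4, against 12.6, 5.46 and 16.3 CPM in Controls 1 to 3. The receptor gene Rara had 76.5, 56.9, 63.3 and 85.2 CPM in ECKO 1 to 4, against 40.3, 22.5 and 12.3 CPM in Controls 1 to 3. Crabp2, which carries retinoic acid to the nucleus, had 24.1, 35.4, 27.9 and 24.9 CPM in ECKO 1 to 4, against 7.55, 2.05 and 7.49 CPM in Controls 1 to 3. In these 3 genes every ECKO library was above every Control, with log2 fold changes of 2.01 ± 0.46, 1.64 ± 0.41 and 2.33 ± 0.59 and adjusted p of 0.114, 0.122 and 0.122. Rarb, a receptor and a target of retinoic acid, had 9.47, 23.8, 10.01 and 14.3 CPM in ECKO 1 to 4, against 7.55, 4.77 and 0.34 CPM in Controls 1 to 3, and Id1, a BMP target, had 31.8, 36.2, 25.4 and 35.5 CPM in ECKO 1 to 4, against 17.6, 8.87 and 31.3 CPM in Controls 1 to 3. Rarb groups were apart and Id1 groups overlapped; neither passed (adjusted p = 0.353 and 0.548).

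Pluripotency and early PGC genes had a list median below that of all tested genes, with no call in either direction. Of the 38 tested, 1 had all ECKO libraries above and 7 had all below the Controls (all tested genes: 7.51% and 5.23%), and the median was -0.31. ECKO 4 held the least RNA of this list, with a summed level of 4228 CPM, against 6278 to 8110 CPM in ECKO 1 to 3 and 6872 to 8911 CPM in Controls. Without ECKO 4 the median was -0.15, 7 of 38 were below and 3 above (all tested genes: 7.8% below and 9.49% above). Klf5, a transcription factor of pluripotent cells, had 31.9, 56.2, 25.4 and 31.2 CPM in ECKO 1 to 4, against 98.2, 101 and 93.6 CPM in Controls 1 to 3. Dppa4, a chromatin protein of pluripotent and germ cells, had 46.4, 90.8, 83.6 and 38.1 CPM in ECKO 1 to 4, against 159, 124.8 and 152 CPM in Controls 1 to 3. Dppa5a, of the same expression class, had 162, 417, 326 and 147 CPM in ECKO 1 to 4, against 425, 647 and 454 CPM in Controls 1 to 3. These 3 lay below Control in every ECKO library, with log2 fold changes of -1.45 ± 0.32, -1.18 ± 0.31 and -0.96 ± 0.33 and adjusted p of 0.0999, 0.135 and 0.223.

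The core factors showed no separation of the groups. Pou5f1, whose promoter drives the sorting reporter, had 69.1, 170.0, 95.4 and 57.3 CPM in ECKO 1 to 4, against 80.5, 75.03 and 80.7 CPM in Controls 1 to 3. Nanog had 92.2, 125.4, 116 and 46.1 CPM in ECKO 1 to 4, against 123, 123 and 225 CPM in Controls 1 to 3. Sox2 had 70.4, 104, 83.6 and 32.8 CPM in ECKO 1 to 4, against 85.6, 142 and 131 CPM in Controls 1 to 3. Dppa3, Kit, Prdm1 and Tfap2c, which mark PGCs, also overlapped between groups, with log2 fold changes of -0.40, -0.21, 0.28 and 0.13 and adjusted p of 0.412, 0.666, 0.598 and 0.852. The SEs of these 7 genes lay between 0.18 and 0.35, so a change of moderate size would not have been detectable here.

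Developmental transcription factors had a high list median, which was lower without ECKO 4. The list names 78 such factors, and 32 had enough counts to be tested. Of the 78, 10, 29, 16 and 10 had no count in ECKO 1 to 4, against 41, 31 and 36 in Controls 1 to 3. Such zeros depend on depth, and detection of all genes differed too. Genes with counts numbered 15465, 12702, 14880 and 14752 in ECKO 1 to 4, against 11975, 12792 and 12801 in Controls 1 to 3. No number of factors switched on is read from the zeros. A factor silent in Controls was tested only where its ECKO counts sufficed, so the filter itself favours higher members. The median of those tested was 1.94 with all libraries and 0.99 without ECKO 4, when 24 were tested. These medians thus cover different sets of genes. With all libraries 10 of 32 lay above all Controls and 3 below, and without ECKO 4 these were 9 and 3 of 24. The shares of all tested genes were 7.51% and 5.23% with all libraries and 9.49% and 7.8% without ECKO 4. Their summed level was 828, 781, 691 and 1935 CPM in ECKO 1 to 4, against 450.3, 521 and 652 CPM in Controls 1 to 3. Hand1 had 33.2, 53.8, 17.9 and 39.8 CPM in ECKO 1 to 4, against 2.52, 1.36 and 1.36 CPM in Controls 1 to 3. It rose, with all ECKO libraries far above the Controls, at a log2 fold change of 4.53 ± 0.67 (edgeR, adjusted p = 0.0281) and 4.65 ± 0.52 in XY (adjusted p = 0.000431). The Controls held 7 Hand1 counts in all, so the size of the change is loosely known. Gata2, of blood, trophoblast and the germ line, had 115, 135, 81.8 and 45.1 CPM in ECKO 1 to 4, against 22.7, 25.2 and 36.1 CPM in Controls 1 to 3; the groups did not overlap, and it passed only without ECKO 4 (adjusted p = 0.0189, against 0.114 with it). Tbx3, a T-box factor, had 14.5, 16.9, 4.65 and 63.0 CPM in ECKO 1 to 4, against 0, 0 and 0 CPM in Controls 1 to 3, at least 36.4-fold higher against the floor of 3 counts over the Controls, and did not pass (adjusted p = 0.0814). Gli2, a hedgehog effector of mesenchyme, had 12.6, 16.9, 9.29 and 60.7 CPM in ECKO 1 to 4, against 0, 1.36 and 0 CPM in Controls 1 to 3. From 2 Control counts its pooled ratio was 53.1, with an exact 95% counting interval from 14.6 to 440, and it was highest in ECKO 4. Tbx4 and Isl2 lay lower in all ECKO libraries. Tbx4 had 48.6, 50.8, 69.7 and 46.1 CPM in ECKO 1 to 4, against 83.1, 72.3 and 211 CPM in Controls 1 to 3, and Isl2 had 18.3, 5.38, 17.9 and 6.63 CPM in ECKO 1 to 4, against 30.2, 37.5 and 28.2 CPM in Controls 1 to 3; neither passed (adjusted p = 0.159 and 0.285). None of the 39 Hox genes had enough counts to be tested. Their summed level was 44.7, 9.82, 24.3 and 353 CPM in ECKO 1 to 4, against 14.4, 48.8 and 1.62 CPM in Controls 1 to 3, so Hox RNA was high in ECKO 4 alone.

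Surface and matrix genes gave 4 of the 15 higher calls (Serpine2, Sdc3, Ptprf and Ptprs), where 0.136% of all tested genes were called higher. Like the other lists, this list was chosen with earlier results of these data known, so its number of calls is no independent finding. Of the 43 tested, 14 lay above all Controls and 0 below, with a median of 1.09, where 7.51% of all tested genes lay above and 5.23% below. Without ECKO 4 the same 4 were called, 13 of 36 lay above and 1 below (all tested genes: 9.49% and 7.8%), and the median was 0.22. Serpine2, a secreted protease inhibitor, had 47.6, 51.5, 65.4 and 59.0 CPM in ECKO 1 to 4, against 10.1, 3.41 and 7.83 CPM in Controls 1 to 3. Its ECKO libraries lay close together and far above the Controls, at a log2 fold change of 3.07 ± 0.46 (adjusted p = 0.0281). Ptprf, a receptor phosphatase of cell contacts, had 150.2, 202, 113 and 147 CPM in ECKO 1 to 4, against 45.3, 29.3 and 54.8 CPM in Controls 1 to 3. Its change was smaller at 1.82 ± 0.30 (adjusted p = 0.0281), and ECKO 4 was not its highest library. Sdc3, a heparan sulphate proteoglycan, had 72.6, 62.3, 40.7 and 73.3 CPM in ECKO 1 to 4, against 15.1, 9.55 and 10.9 CPM in Controls 1 to 3. It changed by 2.46 ± 0.40 (adjusted p = 0.0281). Ptprs, a phosphatase that binds such proteoglycans, had 131, 134, 103 and 317 CPM in ECKO 1 to 4, against 20.1, 29.3 and 44.6 CPM in Controls 1 to 3, and ECKO 4 had more than any other library; the change was 2.36 ± 0.42 (adjusted p = 0.0432) and 1.88 without ECKO 4. Nrp2, a co-receptor for semaphorins and VEGF, had 92.6, 110.0, 115 and 214 CPM in ECKO 1 to 4, against 30.2, 42.3 and 13.3 CPM in Controls 1 to 3 and missed the threshold (adjusted p = 0.0664, and 0.0522 without ECKO 4).

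Ccnd1 is the D-type cyclin that drives entry into S phase and is a common target of WNT and growth factor signals. It had 89.5, 67.7, 48.2 and 181 CPM in ECKO 1 to 4, against 2.52, 8.18 and 6.13 CPM in Controls 1 to 3. ECKO 4 was the highest, and the lowest ECKO library was still several times the highest Control. The log2 fold change was 3.93 ± 0.54 (edgeR, adjusted p = 0.0281), 3.45 without ECKO 4 and 2.43 ± 0.53 in XY (adjusted p = 0.0274). Of 30 tested WNT genes, 2 passed as higher, Ccnd1 and Adgra2 (0.136% of all tested genes did). Of the 30, 10 lay above all Controls and 1 below (all tested genes: 7.51% and 5.23%), and the median was 0.60 (0.37 over 26 tested without ECKO 4). Adgra2, a co-activator of WNT7 signalling in brain vessels, had 39.2, 55.4, 34.7 and 75.6 CPM in ECKO 1 to 4, against 2.52, 6.14 and 1.36 CPM in Controls 1 to 3, a change of 3.95 ± 0.61 (adjusted p = 0.0281). From 14 Adgra2 counts over the Controls, the size of this change is loosely known. Tcf7l1, a repressor of WNT targets, had 53.2, 117, 42.2 and 57.7 CPM in ECKO 1 to 4, against 22.7, 12.96 and 25.2 CPM in Controls 1 to 3, apart from the Controls but not past the threshold (adjusted p = 0.122). Lgr4, the R-spondin receptor, lay lower in each ECKO library at -0.51 (adjusted p = 0.305). Amotl1, a scaffold that holds YAP in the Hippo pathway, had 77.7, 63.1, 71.1 and 189.9 CPM in ECKO 1 to 4, against 22.7, 12.3 and 10.2 CPM in Controls 1 to 3. ECKO 4 again stood above the rest, and the change was 2.90 ± 0.49 (adjusted p = 0.0312) or 2.40 without it.

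Cell cycle inhibitors and replication genes gave no call with all 7 libraries. Cdkn1a, the p21 inhibitor, had 151, 315, 184 and 64.3 CPM in ECKO 1 to 4, against 83.1, 55.2 and 47.6 CPM in Controls 1 to 3. ECKO 4 was within the Control range, and without it Cdkn1a passed at 1.87 (adjusted p = 0.0189, against 0.142 with it). Cdkn1c, the imprinted p57 inhibitor, had 58.1, 56.2, 41.8 and 316 CPM in ECKO 1 to 4, against 17.6, 23.2 and 3.74 CPM in Controls 1 to 3. Its log2 fold change was 3.12 ± 0.81 (adjusted p = 0.125) with ECKO 4, where it was by far the highest, and 1.91 (adjusted p = 0.167) without it. Cdt1, the replication licensing factor, had 74.7, 60.8, 89.0 and 75.6 CPM in ECKO 1 to 4, against 151, 173 and 149 CPM in Controls 1 to 3. Cdc45, of the replicative helicase, had 61.6, 73.9, 67.2 and 47.4 CPM in ECKO 1 to 4, against 95.6, 163 and 105 CPM in Controls 1 to 3. Ccne1, the S-phase cyclin, had 31.4, 36.2, 29.7 and 29.2 CPM in ECKO 1 to 4, against 55.4, 67.5 and 92.9 CPM in Controls 1 to 3. These 3 lay lower in every ECKO library, at -1.07 ± 0.22, -0.97 ± 0.27 and -1.21 ± 0.31, and did not pass (adjusted p = 0.0814, 0.143 and 0.122). Cenpe, a mitotic kinesin, lay above the Controls at 0.64 (adjusted p = 0.192). The 39 tested replication and mitosis genes had a median of -0.17, with 2 above and 5 below, and none passed; of all tested genes 7.51% lay above and 5.23% below. Among 33 tested p53 and apoptosis genes the median was -0.02. Bax had a change of -0.71 and Pmaip1 of 2.53, with adjusted p of 0.229 and 0.241.

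The remaining higher calls belong to several functions. Bend4, a BEN-domain protein, was the most abundant of the 15, with 371, 312, 256 and 207 CPM in ECKO 1 to 4, against 80.5, 83.2 and 101 CPM in Controls 1 to 3; it changed by 1.69 ± 0.25 (adjusted p = 0.0281), and ECKO 4 was the lowest of the ECKO libraries. Chd7, a chromatin remodeller of neural crest and other progenitors, had 72.5, 44.6, 45.4 and 90.2 CPM in ECKO 1 to 4, against 10.1, 12.96 and 9.19 CPM in Controls 1 to 3, a change of 2.56 ± 0.42 (adjusted p = 0.0281). Abca1, which exports cholesterol, had 33.7, 45.4, 30.7 and 33.5 CPM in ECKO 1 to 4, against 5.03, 3.41 and 2.04 CPM in Controls 1 to 3 and changed by 3.54 ± 0.56 (adjusted p = 0.0281). In all 3 the lowest ECKO library was more than 2 times the highest Control. Abca1 had 13 counts over the Controls, so the size of its change is loosely known. Slc7a1, a carrier of cationic amino acids, had 38.0, 89.2, 32.5 and 48.4 CPM in ECKO 1 to 4, against 10.1, 6.82 and 5.11 CPM in Controls 1 to 3, with ECKO 2 the highest, and changed by 2.94 ± 0.52 (adjusted p = 0.0432). Ece1, which processes endothelins, had 77.7, 80.8, 60.04 and 191 CPM in ECKO 1 to 4, against 12.6, 18.4 and 11.6 CPM in Controls 1 to 3, with ECKO 4 far above the rest. It changed by 2.84 ± 0.46 (adjusted p = 0.0281), or by 2.35 without ECKO 4. Tm9sf3, a Golgi membrane protein, had 90.0, 88.5, 54.7 and 132 CPM in ECKO 1 to 4, against 20.1, 19.8 and 14.3 CPM in Controls 1 to 3 and changed by 2.37 ± 0.38 (adjusted p = 0.0281). Fads1, a fatty acid desaturase, and Shmt2, the mitochondrial serine enzyme, lay above all Controls at 1.41 ± 0.29 and 1.30 ± 0.27 and missed the threshold at the same adjusted p of 0.0814. Krt8, a keratin of simple epithelia and trophoblast, had 11.4, 16.2, 13.2 and 8.62 CPM in ECKO 1 to 4, against 0, 0 and 0 CPM in Controls 1 to 3, at least 18.6-fold higher against the floor (adjusted p = 0.0705). Looked at after its values were seen, Pwwp2b, a chromatin reader, had 9.73, 23.1, 7.86 and 9.94 CPM in ECKO 1 to 4, against 0, 0 and 0 CPM in Controls 1 to 3, at least 16.95-fold higher (adjusted p = 0.0814). Also chosen after its values were seen, the growth regulator Myc had 16.2, 5.38, 13.6 and 38.8 CPM in ECKO 1 to 4, against 0, 0.682 and 0 CPM in Controls 1 to 3, with 1 count in the Controls, a pooled ratio of 93.0 and an exact 95% counting interval from 16.6 to 3685. In all, 30 tested genes had no count in any Control. Such genes entered the test only through their ECKO counts, and the Controls are fewer and include the shallowest library. No number of genes switched on is read from this count.

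The 4 lower calls were of genes well expressed in Controls. Pfkp, the platelet isoform of the glycolytic enzyme phosphofructokinase, had 61.7, 111, 103 and 54.0 CPM in ECKO 1 to 4, against 252, 252 and 255 CPM in Controls 1 to 3. The Controls were nearly equal, every ECKO library was lower by more than 2-fold, and the log2 fold change was -1.63 ± 0.27 (edgeR, adjusted p = 0.0281). Hmgn5, an X-linked nucleosome-binding protein, had 92.0, 120.0, 181 and 141 CPM in ECKO 1 to 4, against 506, 255 and 468 CPM in Controls 1 to 3, a change of -1.61 ± 0.28 (adjusted p = 0.0359). Gnai1, an inhibitory G protein subunit, had 36.1, 30.8, 52.2 and 62.0 CPM in ECKO 1 to 4, against 126, 128 and 161 CPM in Controls 1 to 3, a change of -1.61 ± 0.29 (adjusted p = 0.0432). Rpl29, a protein of the large ribosomal subunit, had 194, 210.0, 188 and 173 CPM in ECKO 1 to 4, against 362, 427 and 513 CPM in Controls 1 to 3, a change of -1.19 ± 0.19 (adjusted p = 0.0281). Rpl29 has processed pseudogene copies that could share its reads, so its count is uncertain. Of 80 tested ribosomal protein genes, 12 lay below and 1 above all Controls (all tested genes: 5.23% and 7.51%), with a median of -0.15. Rpl29 alone passed, where 0.0362% of all tested genes were called lower. Rpl13a and Rpl38 lay below at -0.61 and -0.52 (adjusted p = 0.182 and 0.252). Of the 26 tested glycolysis genes Pfkp alone passed, beside the same 0.0362%. Of these 26, 1 lay above and 1 below all Controls (all tested genes: 7.51% and 5.23%). Their median was -0.11, against 0.03 for all tested genes. Ldha, lactate dehydrogenase, lay above all Controls in ECKO with 273, 182, 255 and 356 CPM in ECKO 1 to 4, against 128, 90.0 and 155 CPM in Controls 1 to 3, and did not pass (adjusted p = 0.118).

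Other subunits of Polycomb complexes did not pass. Of 10 tested PRC2 genes, 4 lay below all Controls and 0 above, Eed among them (all tested genes: 5.23% and 7.51%), and the median was -0.47 (-0.43 without ECKO 4). Suz12, the core scaffold, had 159, 162, 179 and 163 CPM in ECKO 1 to 4, against 244, 241 and 263 CPM in Controls 1 to 3. Mtf2, an accessory subunit that binds CpG-rich DNA, had 296, 264, 259 and 221 CPM in ECKO 1 to 4, against 365, 359 and 383 CPM in Controls 1 to 3. Their log2 fold changes were -0.59 ± 0.18 and -0.50 ± 0.18, with adjusted p of 0.187 and 0.235. Of 22 tested PRC1 genes, 0 lay above and 3 below, beside the same 7.51% and 5.23%, with a median of 0.24. Phc1 and Max lay below at -0.51 and -0.60 (adjusted p = 0.254 and 0.241). Sfmbt2, an imprinted gene for a Polycomb-related protein of the placenta, had 362, 498, 492 and 266 CPM in ECKO 1 to 4, against 184, 231 and 233 CPM in Controls 1 to 3. Its groups did not overlap, and it passed only without ECKO 4 (1.05, adjusted p = 0.0455, against 0.137 with it).

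RNA of imprinted genes was most abundant in ECKO 4. The summed level of the 64 in the table was 4879.7, 3691, 3987 and 16070.2 CPM in ECKO 1 to 4, against 2967, 3981 and 3192 CPM in Controls 1 to 3. The median was 0.65 over 51 tested with all libraries and 0.15 over 46 tested without ECKO 4. With all libraries 7 of 51 lay above and 1 below all Controls, where all tested genes gave 7.51% and 5.23%. Plagl1, a growth-limiting transcription factor, had 28.02, 52.3, 37.5 and 168 CPM in ECKO 1 to 4, against 12.6, 16.4 and 3.06 CPM in Controls 1 to 3 (adjusted p = 0.123). Cd81, a tetraspanin, had 80.8, 87.7, 79.0 and 165 CPM in ECKO 1 to 4, against 25.2, 32.7 and 45.3 CPM in Controls 1 to 3 (adjusted p = 0.114). In both genes every ECKO library exceeded every Control, with ECKO 4 the highest.

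Of 19 tested DNA methylation genes none passed, 3 lay above and 1 below all Controls (all tested genes: 7.51% and 5.23%), and the median was -0.06. Uhrf1, the partner of maintenance methylation that PGCs keep low, had 75.9, 88.5, 59.3 and 99.4 CPM in ECKO 1 to 4, against 22.7, 52.5 and 40.5 CPM in Controls 1 to 3. Dnmt3b, a de novo methyltransferase, had 16.99, 23.8, 18.2 and 19.23 CPM in ECKO 1 to 4, against 5.03, 13.6 and 6.13 CPM in Controls 1 to 3. Tet1, which oxidises methylated cytosine, had 607, 789, 740.1 and 458 CPM in ECKO 1 to 4, against 871, 1067 and 1014 CPM in Controls 1 to 3. The first 2 lay above and Tet1 below the Controls, at 1.01 ± 0.33, 1.18 ± 0.57 and -0.60 ± 0.20 with adjusted p of 0.211, 0.381 and 0.205.

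On the X chromosome, 378 genes were tested. Of these 0 passed as higher and Hmgn5 (0.265%) as lower in edgeR; 36 lay above and 19 below all Controls (9.52% and 5.03%, near the 7.51% and 5.23% of all tested genes), and the median was 0.04, against 0.03 for all tested genes. C77370 and Bcorl1 came nearest as higher genes. C77370 had 20.1, 23.8, 44.0 and 38.8 CPM in ECKO 1 to 4, against 2.52, 3.41 and 4.08 CPM in Controls 1 to 3 (adjusted p = 0.0567). Bcorl1, a corepressor of a PRC1 variant, had 33.9, 40.8, 27.5 and 51.0 CPM in ECKO 1 to 4, against 7.55, 0 and 1.02 CPM in Controls 1 to 3 (adjusted p = 0.0664). Ercc6l, a mitotic helicase, and Ftx, a noncoding RNA beside Xist, lay below the Controls at -1.18 ± 0.28 and -1.71 ± 0.45 (adjusted p = 0.114 and 0.132). Xist itself, with the values given above, overlapped between groups, at 1.19 ± 0.85 with ECKO 4 and -0.06 without it.

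**Figure D3:**
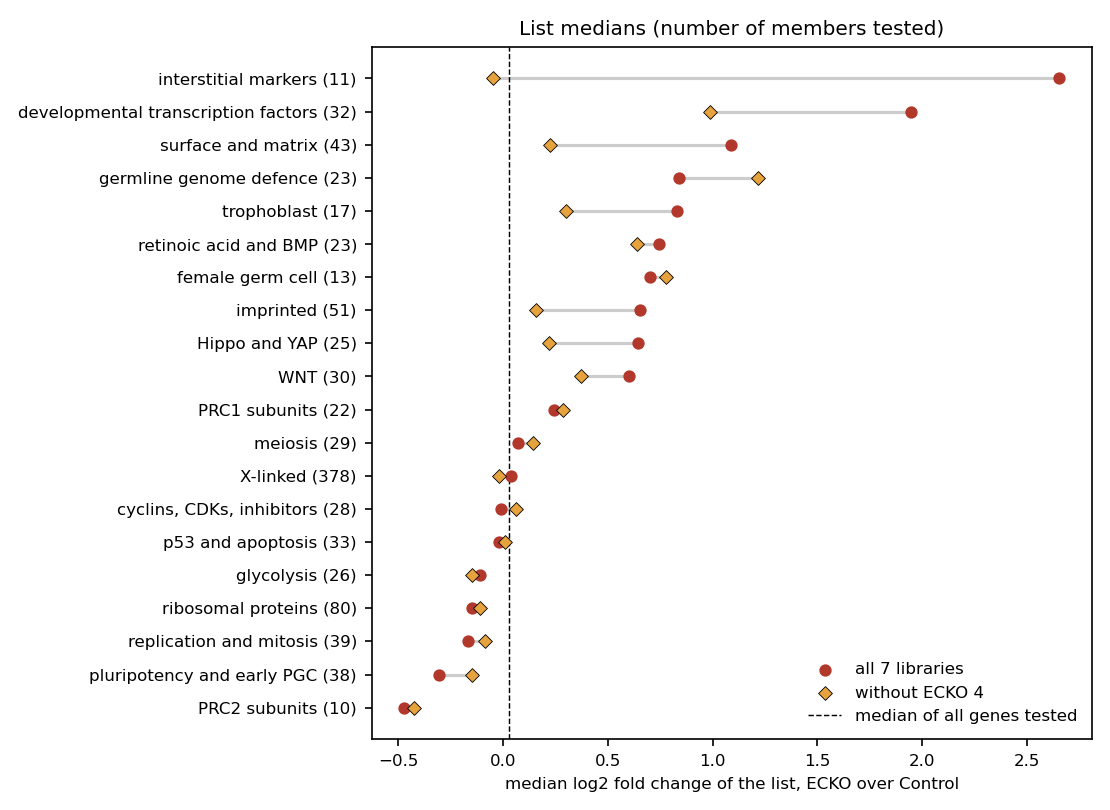
Median log2 fold change (ECKO over Control) of 20 gene lists over their tested members, with all 7 libraries (circles) and without ECKO 4 (diamonds), beside the median of all tested genes (dashed line). Interstitial markers lie at 2.65 with ECKO 4 and -0.05 without it, developmental transcription factors at 1.94 and 0.99, and germline genome defence at 0.84 and 1.21. For some lists the tested members differ between the fits, and ECKO 4 was singled out beforehand for its somatic markers.

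Several list medians shrank without ECKO 4. Interstitial markers had a median of 2.65 over 11 tested genes with it and -0.05 over 6 without it. That fall was fixed in advance, because ECKO 4 was singled out beforehand as rich in somatic markers. The medians also cover different genes, as Pdgfra, for example, was tested only with ECKO 4. The 17 tested trophoblast genes had 0.83 with ECKO 4 and 0.30 without it. Hippo genes had 0.64 over 25 tested with ECKO 4 and 0.22 over 24 without it. Among the 19 called genes, Amotl1 moved the most, at 2.90 with ECKO 4 and 2.40 without it, and Serpine2 the least, at 3.07 and 3.06. Syt7, a synaptotagmin, and Aff1, a transcription elongation factor, passed only without it. Syt7 had 103, 59.2, 43.2 and 19.9 CPM in ECKO 1 to 4, against 15.1, 6.14 and 3.40 CPM in Controls 1 to 3, and Aff1 had 62.0, 83.9, 32.2 and 30.5 CPM in ECKO 1 to 4, against 12.6, 6.82 and 1.70 CPM in Controls 1 to 3; neither overlapped its Controls in any library.

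**Figure D4:**
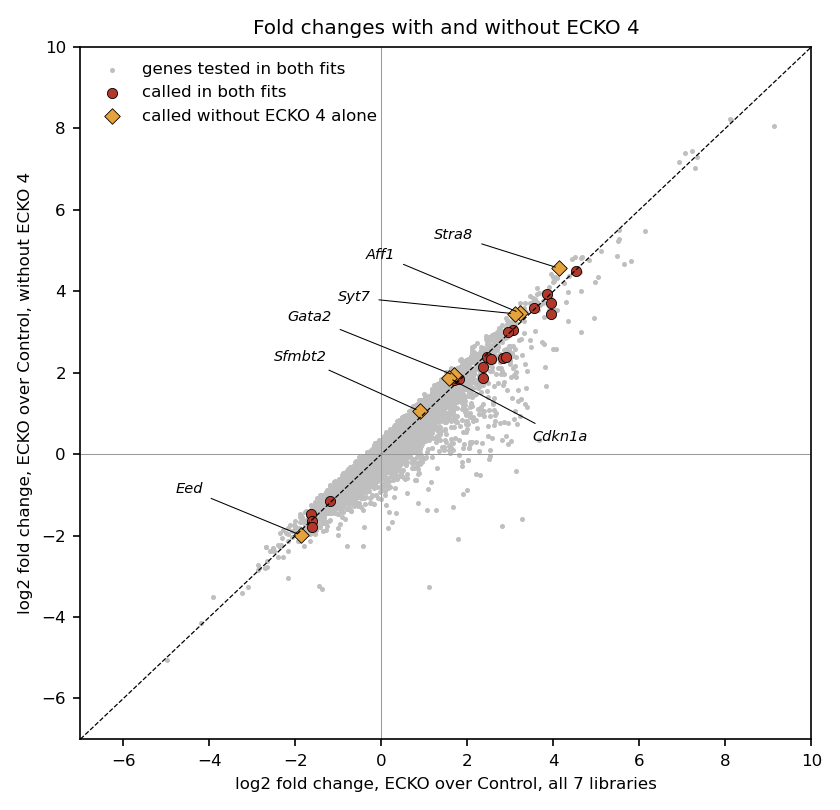
Log2 fold change (ECKO over Control) of 10248 genes without ECKO 4 (y) against that with all 7 libraries (x), with the 19 genes called in both fits in red and the 7 called only without ECKO 4 as labelled diamonds. Grey points under the dashed line of equality, mostly at positive x, are genes whose value shrinks when ECKO 4 is left out. Grey points near the upper right end rest on few or no Control counts, and their fitted values are no bounds.

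The same contrast in XY germ cells of the same age, from other embryos and a separate table, called 266 of 12497 genes (2.13%). All 19 XX genes were tested there. Of the 15 higher in XX, 11 were also called higher in XY (1.51% of all tested genes were), and of the 4 lower in XX, 3 were also called lower (0.616%). Read the other way, 11 of the 170 XY higher genes tested in XX and 3 of the 75 XY lower genes tested in XX were called there, in shallower libraries. The 4 higher XX genes not called in XY were Tm9sf3, Ece1, Chd7 and Slc7a1, at adjusted p of 0.0707, 0.0562, 0.0754 and 0.0958 there. Rpl29 had 0.28 ± 0.96 in XY (adjusted p = 0.922), with a large SE. Whether the effect differs between sexes was tested by the interaction of sex and genotype over all 15 libraries. edgeR called 0 of 14185 genes (747 at an unadjusted p under 0.05, smallest adjusted p 0.587), and DESeq2 called 1. Fold changes were larger in XX than in XY for 11 of the 15 higher genes, but these differences did not pass. The 15 were picked for passing in XX, which favours larger values there, so no stronger effect in XX is read from this.

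**Figure D5:**
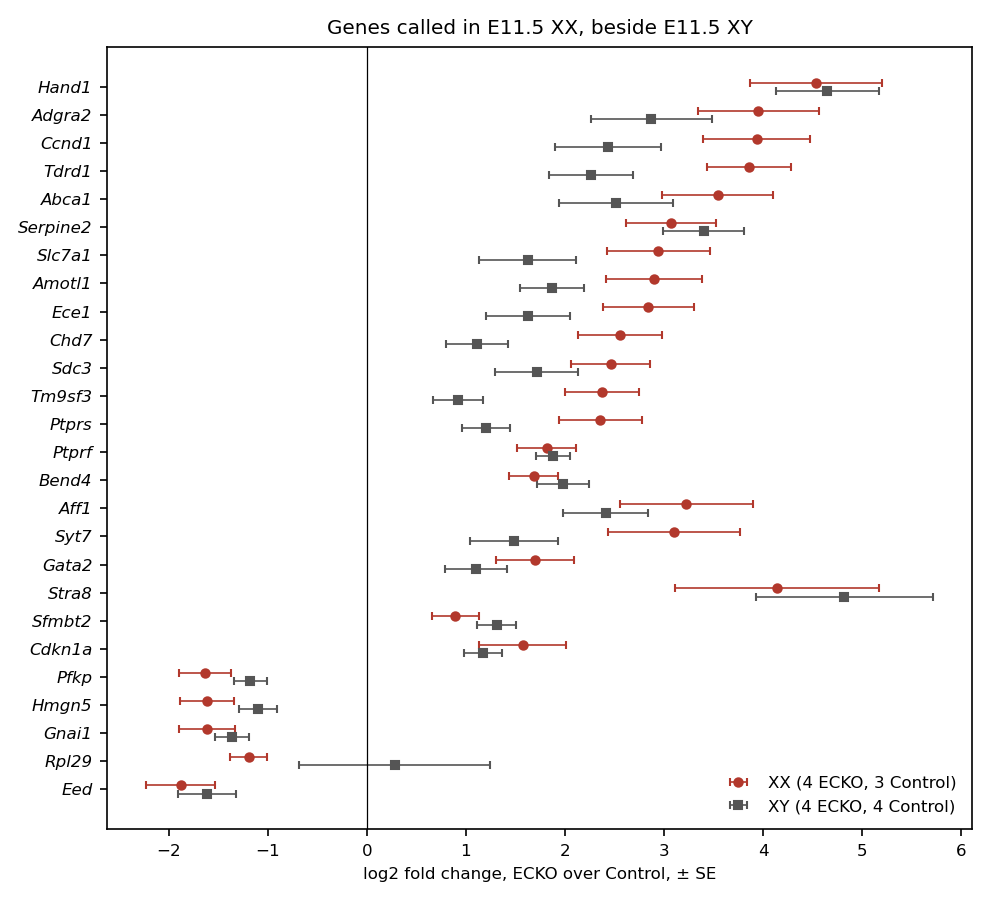
Log2 fold change of ECKO over Control, with SE bars, in E11.5 XX (circles) and E11.5 XY (squares) for the 26 genes called in XX with all libraries or without ECKO 4, XX values from all 7 libraries. Apart from Rpl29, which is at 0.28 in XY, each gene lies on the same side of 0 in both sexes.

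In E12.5 XX germ cells, 13 and 13 cells of 2 ECKO embryos and 14 and 16 cells of 2 Control embryos were summed per embryo. With 2 embryos against 2 no test was made. Of the 15 genes higher at E11.5, 11 had both ECKO embryos above both Controls, compared with 24.1% of all 12594 tested genes, and of the 4 lower genes 3 had both below, compared with 20%. Ccnd1 had 66.1 and 54.4 CPM in ECKO embryos, against 25.1 and 4.74 CPM in Controls. Hand1 had 94.7 and 18.6 CPM in ECKO, against 5.56 and 8.10 CPM in Controls. Hmgn5 had 24.5 and 101 CPM in ECKO, against 283 and 297 CPM in Controls. Bend4, Sdc3, Ptprf, Slc7a1 and Gnai1 were the exceptions, with groups that overlapped. Bend4 had 19.3 and 12.51 CPM in ECKO embryos, against 25.02 and 9.95 CPM in Controls. These are other embryos at a later stage, measured by another method, and levels are not compared between the stages.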

How the data were processed

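RNA of sorted GFP-positive germ cells was extracted with the RNeasy Micro kit and converted with the Ovation RNA-seq System V2, per the labels' protocols. The deposited tables hold the authors' counts, whole numbers for 24391 gene symbols with 1 column per library or cell. The submitters' processing notes name HISAT2, edgeR and mm9, with neither version nor role. Which program, annotation and strand setting gave the counts was not stated in these sources, so reads of overlapping or antisense genes cannot be told apart, and counts of near-identical genes are uncertain. The whole-genome bisulfite libraries were not analysed here.

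All values start from the deposited counts. edgeR 4.0.16 (R 4.3.3; filterByExpr, TMM, glmQLFit and glmQLFTest) was fitted to the 7 E11.5 XX libraries alone, and genes were called at a Benjamini-Hochberg adjusted p under 0.05 over all 11058 genes tested. The E11.5 XY table was fitted the same way, and an interaction of sex and genotype over both. Log2 fold changes are ECKO over Control, with an SE taken as the size of the change over the square root of the F statistic. CPM of single genes use TMM-scaled library sizes; summed CPM of lists use total counts. E12.5 cells with at least 50000 counts and 1500 genes were summed per embryo, and 1 cell with conflicting title and genotype labels was grouped by its title. A gene with no Control count is set against a floor of 3 counts over the Controls. With 1 to 3 Control counts, a pooled ratio has an exact 95% interval from the binomial split of the counts. Floors and intervals cover counting error only, since amplified reads with no molecular identifiers can be copies of each other. A p-value reflects how libraries labelled as replicates vary, which may be technical.

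Members and gene lists were chosen with earlier results of these data known, and lists get counts and medians only. A member silent in Controls is tested only if its ECKO counts suffice, so medians and counts of tested members can lean upward. Named genes are Eed, every gene called with or without ECKO 4, the up to 3 higher and 3 lower members of each of 33 lists with the smallest unadjusted p, and a panel of 20 germ cell, signalling, cell cycle and methylation genes. The text gives those that tell most of each list. A gene outside this rule, other than a cell type marker, is said to be chosen after its values were seen. Alternatives were RLE scaling, no filter or a stricter one, DESeq2 1.42.0, voom with quality weights in limma 3.58.1, counts thinned to the shallowest library, a fit over 15 libraries, the replicate number as a block, and each library left out. The edgeR fit was also run on counts simulated from its own dispersion estimates with planted changes, to check the size and sign of estimates. That simulation held no library rich in somatic markers, so it does not test how such a library affects the calls. Chromosomes came from a RefSeq table of GRCm38.p6, which gave 24271 of 24391 symbols a chromosome, and promoters from RefSeq in the same build.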

Additional observations from a re-analysis of the deposited data

Results flagged for a closer look

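In the ECKO group of 4, 1 library was compared with the other 3 for 32 list sums and for 93 genes, nearly all of which the text gives values for. A value stood apart where its gap to the nearest neighbour, over the group's range, exceeded Dixon's critical value at 95% confidence, which chance alone gives in about 1 in 20 groups. This was so for 20 values, 11 genes and 9 list sums, and in each of the 20 the library standing apart was ECKO 4. That library had been singled out beforehand as rich in somatic markers, and such markers are among the values compared. Some genes are also members of the lists summed. The 20 values are therefore neither independent of that choice nor of each other, and the chance rate does not apply to their number. That ECKO 4 is always the library apart does not hold beyond these genes. Over the 180 genes that the naming rule gives, only part of which are described here, 21 stood apart: 14 in ECKO 4, 3 in ECKO 2, 2 in ECKO 1 and 2 in ECKO 3. The group of 3 Controls is too small for this comparison.

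Among genes called between ECKO and Control, Ece1 had 191 CPM in ECKO 4, and 60.04 to 80.8 CPM in the other ECKO libraries. Amotl1 had 189.9 CPM in ECKO 4, and 63.1 to 77.7 CPM in the other ECKO libraries. Ptprs had 317 CPM in ECKO 4, and 103 to 134 CPM in the other ECKO libraries. All 3 were also called without ECKO 4. Among genes of mesenchyme and vessels, Pdgfra had 214 CPM in ECKO 4, and 1.43 to 22.3 CPM in the other ECKO libraries. Col1a2 had 224 CPM in ECKO 4, and 3.85 to 27.1 CPM in the other ECKO libraries. Cdh5 had 128 CPM in ECKO 4, and 7.39 to 10.001 CPM in the other ECKO libraries. Gli2 had 60.7 CPM in ECKO 4, and 9.29 to 16.9 CPM in the other ECKO libraries. Of imprinted and X-linked genes, Cdkn1c had 316 CPM in ECKO 4, and 41.8 to 58.1 CPM in the other ECKO libraries. Cd81 had 165 CPM in ECKO 4, and 79.0 to 87.7 CPM in the other ECKO libraries. Xist had 697 CPM in ECKO 4, and 73.3 to 158 CPM in the other ECKO libraries. The meiotic gene Syce2 stood apart as low. Syce2 had 86.8 CPM in ECKO 4, and 177 to 180.1 CPM in the other ECKO libraries.

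Interstitial markers summed to 1931 CPM in ECKO 4, and 148 to 296 CPM in the other ECKO libraries. Endothelial markers summed to 532 CPM in ECKO 4, and 131 to 175 CPM in the other ECKO libraries. Hox genes summed to 353 CPM in ECKO 4, and 9.82 to 44.7 CPM in the other ECKO libraries. Developmental transcription factors summed to 1935 CPM in ECKO 4, and 691 to 828 CPM in the other ECKO libraries. Imprinted genes summed to 16070.2 CPM in ECKO 4, and 3691 to 4879.7 CPM in the other ECKO libraries. Surface and matrix genes summed to 5414 CPM in ECKO 4, and 2576 to 2691 CPM in the other ECKO libraries. WNT genes summed to 3166 CPM in ECKO 4, and 1975 to 2090.3 CPM in the other ECKO libraries. Hippo genes summed to 2953 CPM in ECKO 4, and 1574 to 1709 CPM in the other ECKO libraries. Meiosis genes summed to 796 CPM in ECKO 4, and 1391 to 1481 CPM in the other ECKO libraries. The sum of meiosis genes was thus low where the others were high. What these sums have to do with each other was not tested.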

How the results depend on the processing

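The 19 calls became 18 with RLE scaling, 27 with a stricter filter (10 CPM in 3 libraries) and 24 with thinned counts. They became 217 with no filter, 316 in DESeq2, 7 in voom with quality weights, 120 in the fit over 15 libraries and 0 to 26 with 1 library left out. All 19 were among the calls of the unfiltered fit, the stricter filter and DESeq2, 18 were in the 15-library fit, 16 in the thinned counts and 5 in voom, which gave Control 1, the shallowest library, a weight of 4.59 and ECKO 4 one of 0.489. In voom 1 gene was higher and 6 were lower, against 15 and 4, and Eed passed there (adjusted p = 0.0222). Bend4, Hmgn5 and Pfkp were called under each of the 8 alternatives that keep all libraries. The median of all genes shifted to 0.21 without a filter, 0.13 in DESeq2 and 0.11 in the 15-library fit, against 0.03. The cause of these moves was not tested.

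With the replicate number as a block, 129 genes were called over 7 libraries (19 shared). Same-numbered libraries did not deviate together throughout (correlations of 0.0542, -0.0829 and 0.161), so the numbers were not taken as pairs. Without ECKO 4 the block gave 32, and the XX minus XY difference gave 0.

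Without ECKO 4, the 26 calls became 254 with no filter, 41 with the stricter filter, 203 in DESeq2, 40 with thinned counts, 26 with RLE scaling, 18 in voom and 3 to 21 with 1 more library left out (past 1.5 times without any except ECKO 1). These alternatives were chosen after seeing the data. The 266 XY calls became 457 with no filter, 981 in DESeq2, and 64 to 333 with 1 library left out (past 1.5 times without Control 2, 3 or 4, or ECKO 2 or 4). The XX minus XY difference gave 0 or 1 with 1 library left out. The 1 gene without XY Control 3 was Rpl29 (-4.79, adjusted p = 0.0195), and the 1 gene in DESeq2 was Cyp51, a sterol synthesis enzyme (1.58, adjusted p = 0.0131). The E12.5 count stayed at 11 with cells of at least 200000 counts and 3000 genes.

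Of 1361 values of 93 genes under alternatives, 7 changed sign, over 5 genes. With 1 library left out, Sycp3 ranged from -0.381 to 1.35, Pou5f1 from -0.0959 to 0.492, Tfap2c from -2.94e-05 to 0.30 and Xist from -0.0639 to 3.07, and Pdgfra was at -0.0232 with the block. No depth-limited absence is read from genes under a few CPM, as 1 count is 2.41 CPM in Control 1.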
